A study of Rattus norvegicus with 145 samples.

Results

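The liver of vehicle-treated male Wistar rats was compared between the 2 experiments of an acetamide study. Experiment A was the dose range finding study and experiment B followed it. All 10 rats that met the description were used, 5 from each experiment, out of 145 samples in the series, and they were taken by label alone: males, gavaged with water at an acetamide dose of 0 for 7 days, with the left liver lobe collected on day 8. The experiment A rats were of the Hsd:WI stock, 9 to 10 weeks old, from Envigo. The experiment B rats were of the Crl:WI stock, 8 to 10 weeks old, from Charles River. Both groups were given water by daily gavage and were fasted overnight before sacrifice, and none received acetamide. Rat stock, supplier, age range and running of the experiment changed together between the groups, so these cannot be told apart. The labels name no library batch, so whether it changed too is not known. Diet is not given by experiment. Males at 1 dose were used as a second look at the same contrast: 5 males of each experiment given acetamide at 300 mg/kg/day (mkd), the lowest dose that both experiments shared. Levels are also set beside those of the other males on day 8, given 30, 100 or 1000 mkd in experiment A and 500, 750, 1000 or 1500 mkd in experiment B, and of Crl:WI vehicle females on day 8 and Crl:WI vehicle males gavaged for 28 days.

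Wistar is an outbred name, and colonies kept apart by different breeders drift in allele frequency, so rats sold under the same name need not be genetically alike. The adult rat liver makes plasma proteins, lipoproteins, cholesterol and bile acids, and clears drugs through cytochrome P450, glutathione and sulfate conjugating enzymes. Many of these genes are set by diet, by the time of day, by the sex-dependent pattern of growth hormone release and by inherited variants, and all of these can differ between groups of control animals.

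The libraries held between 27094716 and 37001581 gene counts in experiment A (median 31830845), and between 20196236 and 33497708 in experiment B (median 30042635). No pair of replicates had identical values or agreed within sampling noise. Hepatocyte markers such as Alb (albumin) dominated every library: the summed level of 10 hepatocyte genes, in CPM (the reads of a gene relative to all gene reads of its library, after scaling), was 277000 to 363000 in experiment A and 223000 to 295000 in experiment B. Summed levels of macrophage, T and NK cell, B cell, neutrophil, cholangiocyte, stellate cell, endothelial, adipocyte and skeletal muscle markers overlapped between the groups. Erythroid markers did not overlap, with 216 to 300 CPM in experiment A and 32.4 to 139 CPM in experiment B, where 4 of 6 tested markers had an unadjusted p under 0.05, all higher in A. Hbb, a beta globin, was at 208, 194, 229, 167 and 253 CPM in the A rats and at 101, 115, 26.7, 43.2 and 52.6 CPM in the B rats. The erythroid markers Gata1, Hba1 and Hbe2 had no read in any of the 10 rats. In whole liver, fewer cells of a type and less RNA per cell cannot be told apart.

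The first principal component of the 10 rats held 22.8% of the variance and separated the experiments without overlap, while the second held 19.9% and spread rats within each experiment. Pairs of rats within experiment A had a median correlation of log2 CPM of 0.9714, pairs within experiment B of 0.9742, and pairs across experiments of 0.9678.

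**Figure D1:**
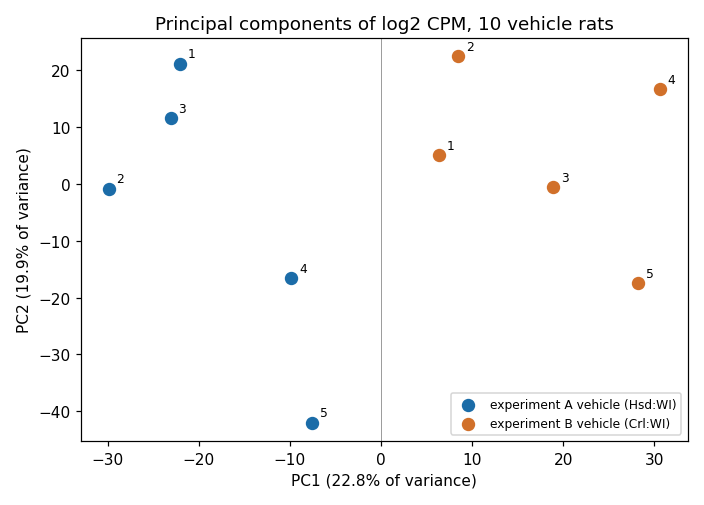
Principal components of log2 CPM over the tested genes in the 10 vehicle rats, with PC1 on the x axis (22.8% of variance), PC2 on the y axis (19.9%) and the replicate number beside each point. Rats of experiment A lie to the left of 0 and rats of experiment B to the right, with both experiments spread widely along PC2.

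Of 10916 genes tested, 38 differed between the vehicle groups by a fold change of at least 1.5 with an adjusted p of at most 0.05 (edgeR quasi-likelihood test), which is 0.348% of the genes. Higher levels in experiment A were called for 24 genes (0.220%) and higher levels in experiment B for 14 (0.128%). All 5 rats of 1 experiment lay above all 5 of the other for 552 genes, or 5.06%, and that held for each of the 38. An unadjusted p under 0.05 was seen for 1934 genes, 906 higher in A and 1028 higher in B, which is the background for the list counts at that level given later. The count rested on few rats: it was 12 without experiment A rat 3, 14 without experiment B rat 4, 18 without experiment A rat 2 and 21 without experiment B rat 5. Scaling by library size alone moved the median of all genes by 0.15 on the log2 scale and gave 140 calls, 21 higher in A and 119 higher in B. DESeq2 gave 339, 131 higher in A and 208 higher in B, with a median of all genes of 0.01, so both the count and the balance of directions depended on the method. Among others, the calls for Ly6al, Spaca1, Ntf3, Sult2a6, Oplah, Jam3, Hps1, Adcy10 and Rps2 were kept under each alternative that tested them, 17 for Ly6al and Spaca1. The calls of 17 genes were lost in 8 to 12 of 18 alternatives, with no change of direction: Cela1, Aldh1l1, Apoc4, Hpd, LOC691083, Apoc1, Ndufb4, Rps10, Atp5i, Gsta4, Med13, Dync1h1, Sema6d, Akap6, Hao2, MGC93861 and Akap5. The other 11 lost theirs in 1 to 6.

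Ly6al, a member of the Ly6 family of small surface proteins, was the single gene read in every rat of one group (at least 30 reads) and close to absent in the other (at most 3). Its level was 6.37, 29.9, 4.42, 18.7 and 7.16 CPM in the A rats, from 114 to 815 reads. In the B rats it was 0, 0, 0, 0.0922 and 0 CPM, at most 2 reads. Taken against a floor of 3 reads in each B rat, the mean of experiment A was at least 120-fold higher (adjusted p = 0.001495). In dosed males on day 8, 18 of 20 of experiment A lay above all 25 of experiment B. More than 3 reads were found in 23 of 25 day 8 males of experiment A and 0 of 30 of experiment B, vehicle rats included. The vehicle females and the day 29 vehicle males of experiment B had at most 1 read. The lowest of the 25 males of experiment A had 1 read and the highest 1985.

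Spaca1, which encodes a sperm acrosome membrane protein, showed the same pattern at a lower level, with 0.468 to 0.881 CPM in the A rats (13 to 24 reads) and at most 1 read in any B rat (adjusted p = 0.001768). More than 3 reads were found in 19 of 25 males of experiment A and 0 of 30 of experiment B, vehicle rats included. Among dosed males, 16 of 20 of experiment A lay above all 25 of experiment B.

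Several genes of signalling and cell contact were higher in experiment A. Ntf3, the growth factor neurotrophin 3, was at 19.0, 18.7, 15.0, 23.6 and 7.30 CPM in A and at 2.13, 3.54, 3.05, 2.67 and 1.41 CPM in B, with no overlap and a 6.50-fold difference (log2 fold change B over A of -2.70, SE 0.32, adjusted p = 0.003698). Plek2, a pleckstrin family protein, was at 1.46 to 2.99 CPM in A and 0.735 to 1.05 CPM in B (2.78-fold, adjusted p = 0.01972). In dosed males on day 8 the experiments overlapped for Plek2, with medians of 2.07 CPM in A and 1.92 CPM in B. Jam3, a junctional adhesion molecule, was at 9.59 to 16.4 and 4.61 to 7.04 CPM (2.39-fold, adjusted p = 0.01372).

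Cela1, an elastase, was at 29.1, 35.7, 40.3, 48.8 and 66.8 CPM in A and at 12.4, 23.0, 16.1, 8.58 and 17.1 CPM in B. The groups did not overlap and differed 2.86-fold (adjusted p = 0.04336), a call that was lost in 9 of 18 alternatives. Cela1 was also on the list of pancreatic acinar markers, whose summed level was 29.8 to 67.7 CPM in A and 9.41 to 24.4 CPM in B. The acinar markers Clps, Pnlip and Prss1 had no read in any of the 10 rats, and Cela2a averaged 0.393 CPM in A and 0.326 CPM in B, so nearly the whole of that sum was Cela1.

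Enzymes of conjugation and detoxification formed another part of the genes higher in A. Sult2a6, a hydroxysteroid sulfotransferase that sulfates bile acids and steroids, was at 318, 251, 319, 220 and 456 CPM in A and 101, 83.0, 56.4, 60.5 and 103 CPM in B (3.90-fold, log2 fold change -1.96, SE 0.23, adjusted p = 0.003698). Its close relative Sult2a2 was at 0.954 to 3.30 CPM in A and 0.220 to 0.621 CPM in B (5.27-fold, adjusted p = 0.01767). The genes lie near each other in the rat genome, with 2 protein-coding genes between them. As members of 1 gene family they may share reads, which was not tested. Cyp2u1, a fatty acid hydroxylating P450, was at 5.48 to 7.70 and 2.03 to 3.92 CPM (2.44-fold, adjusted p = 0.01767). Dkk2, which was called in the opposite direction, lies near Cyp2u1, also with 2 protein-coding genes between them. Oplah, which returns 5-oxoproline to glutamate in the glutathione cycle, was at 351, 304, 316, 302 and 321 CPM in A and 177, 155, 126, 115 and 88.3 CPM in B (2.42-fold, adjusted p = 0.01227). The glutathione transferases Gstk1 and Gsta4 differed 1.69-fold and 1.51-fold (adjusted p = 0.01767 and 0.02149).

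Abundant genes of lipoprotein and amino acid metabolism were also higher in A, by less than 2-fold. Apoc1, an apolipoprotein of triglyceride-rich particles, was at 2810, 3680, 3060, 3320 and 2850 CPM in A and 2140, 2220, 1790, 1780 and 1710 CPM in B (1.64-fold, adjusted p = 0.04336). Apoc4, its immediate neighbour among protein-coding genes, was at 362 to 532 CPM in A and 192 to 291 CPM in B (1.86-fold, adjusted p = 0.03824). Hpd, which acts in tyrosine breakdown, was at 1410 to 1940 and 795 to 1290 CPM (1.77-fold, adjusted p = 0.04781). Aldh1l1, a folate dehydrogenase, was at 255 to 380 and 130 to 221 CPM (1.92-fold, adjusted p = 0.04336). These 4 calls were among the 17 lost in 8 or more alternatives. Also higher in A were the ribosomal protein gene Rps10, the respiratory chain genes Ndufb4 and Atp5i, Sh3yl1 and LOC691083, between 1.54- and 1.88-fold. Ribosomal protein genes have many near-identical copies in the rat genome, so their counts are uncertain.

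Hps1, a subunit of a complex that builds lysosome-related organelles, had the smallest adjusted p of the 38 genes. Its level was 4.64, 6.6, 6.71, 4.58 and 4.88 CPM in A and 23.1, 22.3, 20.8, 20.4 and 18.6 CPM in B (3.82-fold, log2 fold change 1.93, SE 0.14, adjusted p = 0.0001941). Adcy10, the soluble, bicarbonate-sensing adenylyl cyclase, was at 1.51, 2.20, 2.06, 2.54 and 4.57 CPM in A and 12.9, 14.2, 15.3, 13.7 and 13.3 CPM in B (5.34-fold, log2 fold change 2.42, SE 0.25, adjusted p = 0.001495). For both genes all 25 dosed males of experiment B lay above all 20 dosed males of experiment A: Hps1 was at 14.2 to 28.3 CPM against 2.11 to 12.1 CPM, and Adcy10 at 7.85 to 40.1 CPM against 0.855 to 5.42 CPM. The day 29 vehicle males and the day 8 vehicle females of experiment B were also above every A vehicle rat for both. Such separation of dosed males varied among the called genes. The dosed rats of the higher experiment that lay above every dosed rat of the other numbered 0 of 25 for Dync1h1. They numbered 3 of 20 for Plek2 and for Sult2a6, and 20 of 20 for Cyp2u1. The share over all genes tested is not given here.

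A pair of anchoring proteins that tether protein kinase A, the kinase that cyclic AMP activates, were higher in B. Akap5 was at 4.96, 1.47, 2.75, 3.00 and 1.85 CPM in A and 9.85, 6.14, 10.3, 13.2 and 7.58 CPM in B (3.31-fold, adjusted p = 0.04336). Akap6 was at 0.991 to 1.58 and 2.20 to 3.32 CPM (2.09-fold, adjusted p = 0.04336), and the calls of Akap5 and Akap6 were lost in 8 and 11 of 18 alternatives. Casq1, a calcium-binding protein of the sarcoplasmic reticulum, was at 0.360 to 0.737 CPM in A and 1.10 to 2.91 CPM in B (3.98-fold, adjusted p = 0.01934). Dkk2, a secreted modulator of Wnt signalling, was near the limit of detection in A at 0.0367 to 0.464 CPM and at 0.983 to 1.95 CPM in B (7.79-fold, adjusted p = 0.01972). Sema6d, a semaphorin, was at 4.69 to 7.46 CPM in A and 8.74 to 14.2 CPM in B (2.02-fold, adjusted p = 0.03824).

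Hao2, a peroxisomal hydroxyacid oxidase, was the most abundant gene higher in B, at 296, 262, 190, 384 and 318 CPM in A and 458, 694, 690, 574 and 925 CPM in B (2.29-fold, log2 fold change 1.20, SE 0.21, adjusted p = 0.04336). Scpep1, a lysosomal serine carboxypeptidase, was at 28.8 to 40.0 and 53.6 to 81.6 CPM (1.82-fold, adjusted p = 0.01795). Med13, a subunit of the Mediator complex of transcription, was at 22.6 to 29.4 and 36.0 to 60.3 CPM (1.83-fold, adjusted p = 0.03094). Dync1h1, the heavy chain of cytoplasmic dynein, was at 18.5 to 29.7 and 40.7 to 56.6 CPM (1.85-fold, adjusted p = 0.04336). MGC93861 was at 1.68 to 3.19 and 3.65 to 8.41 CPM (2.57-fold, adjusted p = 0.0487).

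Rps2, a protein of the small ribosomal subunit, was at 3.78, 5.98, 7.76, 6.35 and 14.7 CPM in A and 52.2, 46.6, 38.4, 52.0 and 43.3 CPM in B (6.00-fold, log2 fold change 2.58, SE 0.30, adjusted p = 0.003197). Its level was not uniform among other Crl:WI rats. Of the 30 males of experiment B on day 8, 23 were at 29.4 to 52.2 CPM and 7, all of them dosed, at 5.49 to 15.3 CPM, with none between. The 5 day 29 vehicle males of the same Crl:WI stock were at 7.81 to 10.3 CPM, inside the range of 3.12 to 20.3 CPM of the 25 males of experiment A, and the 5 vehicle females at 46.4 to 52.9 CPM. LOC500035 was at 0.252 to 2.46 CPM in A vehicle rats, 5.87 to 48.8 CPM in B vehicle rats and 0.728 to 1.67 CPM in the day 29 vehicle males. For both genes the day 29 vehicle males lay within the range of experiment A.

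**Figure D2:**
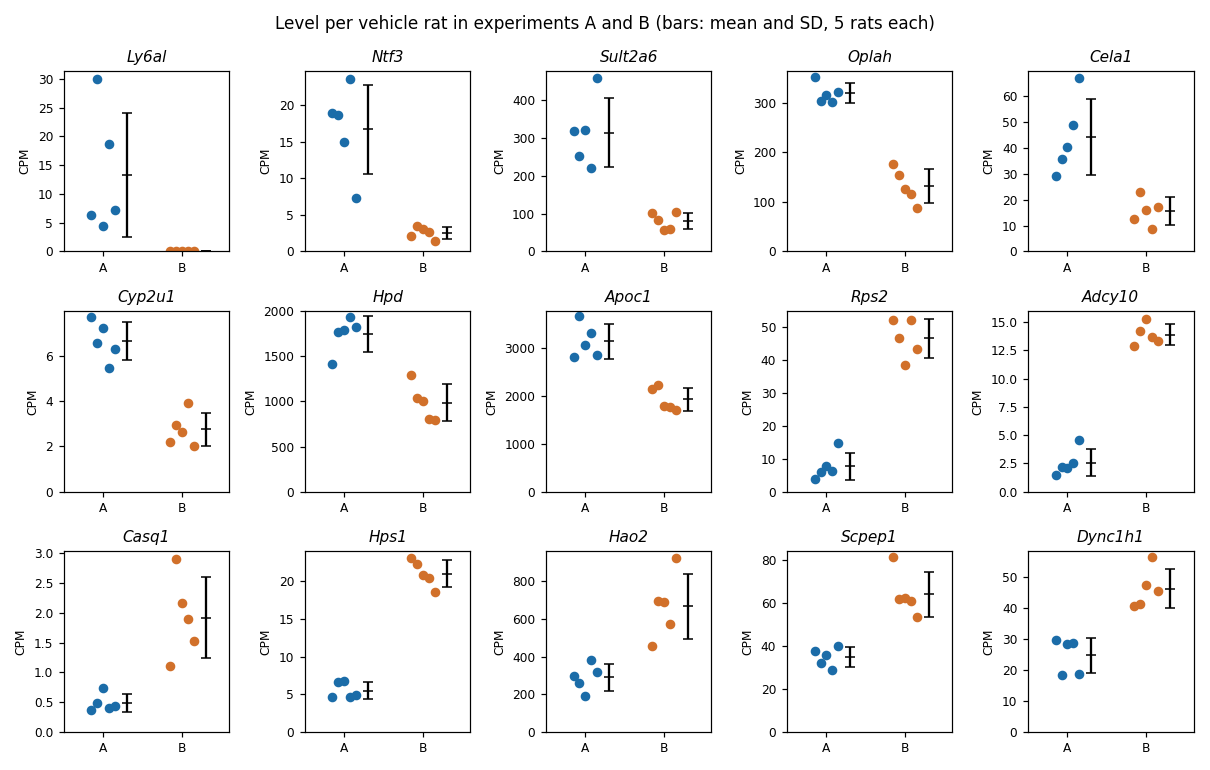
Level of 15 genes in each vehicle rat, in CPM on linear axes that start at 0, with experiment A in blue and experiment B in orange. Each point is 1 rat and the black bars give the mean and SD of 5 rats. The first 8 panels are genes higher in A and the last 7 are genes higher in B, and in every panel the 2 groups do not overlap.

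The other vehicle rats of experiment B gave a further view of the 38 genes. Day 29 males lay wholly on the far side of the A vehicle range, in the direction of the B rats, for 25 of 38 genes, and day 8 females for 24. The 38 genes were called with these same A vehicle rats, so the counts are not an independent check. The share over all genes tested is not given here. Among the genes for which the day 29 males did not were Rps2, LOC500035, Dkk2, Apoc1 and Aldh1l1. These day 29 males were Crl:WI rats, although their label names the first exposure experiment. Sult2a6 was at 936 to 2090 CPM in the females and Hao2 at 18.1 to 101 CPM, so both lay outside the vehicle male levels of either experiment. For Hao2 the dosed males of experiment A reached down to 18.1 CPM.

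The contrast was then examined in 10 other rats, 5 per experiment, that had received 300 mkd. Their libraries held 27056129 to 31811270 gene counts in A and 16405929 to 32082101 in B. In the B libraries 41.5 to 67.1% of reads named no gene, with both the fewest counts and the largest share in B rat 2. Within each experiment, 300 mkd against vehicle gave 0 called genes by edgeR, with 217 genes at an unadjusted p under 0.05 in A and 139 in B, and 4 and 1 genes by DESeq2. Between experiments 102 of 10816 genes (0.943%) were called at 300 mkd, 45 higher in A and 57 higher in B, and 503 (4.65%) separated all rats. Of the 38 vehicle calls, 36 passed the filter on low counts at 300 mkd, and each had the same direction there, beside 79.2% of the 10769 genes tested in both. The calls at 300 mkd included 21 of them, which is 55.3% of the vehicle calls and 20.6% of the calls at 300 mkd, and 28 of the 36 again separated all 5 rats from the other 5. The count at 300 mkd was 33, 38, 45, 52, 54 and 58 without B rat 1, A rat 5, B rat 2, A rat 4, B rat 4 and A rat 2, respectively.

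Sult2a6, Sult2a2 and Plek2 had log2 fold changes of -0.28, -0.45 and -0.02 at 300 mkd, the nearest to 0 of the 36 genes. Sult2a6 was at 283.6 ± 93.6 CPM in A and 232.6 ± 78.1 CPM in B at 300 mkd (SD, n = 5), beside 312.9 ± 90.9 and 80.8 ± 21.9 CPM in vehicle rats (n = 5). Between the doses the log2 fold change moved toward B by 1.68 for Sult2a6, by 1.95 for Sult2a2 and by 1.45 for Plek2. The edgeR interaction test gave an adjusted p of 1 for each. Its unadjusted p was 0.0002106 for Sult2a6, 0.0005554 for Sult2a2 and 0.01311 for Plek2, genes picked here for their small values at 300 mkd. The test called 0 of 11158 genes, with 100 at an unadjusted p under 0.05, so a difference between the doses was not shown.

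**Figure D3:**
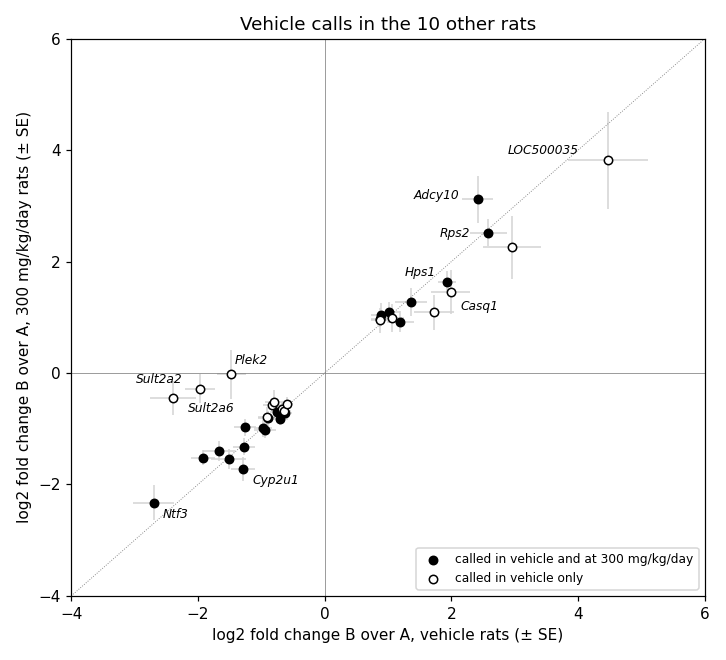
Log2 fold change of experiment B over experiment A for the 36 vehicle calls also tested at 300 mkd, with vehicle rats on the x axis, 300 mkd rats on the y axis and bars of 1 SE. All 36 points have the same sign on both axes, and Plek2, Sult2a6 and Sult2a2 lie closest to 0 on the y axis.

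Gene groups were described from the vehicle rats and, beside that, from 1 fit over the 20 vehicle and 300 mkd rats with dose as a term. That fit was chosen after the vehicle results were seen and it contains the vehicle rats. It called 730 of 11158 genes (6.54%), 235 higher in A (2.11%) and 495 higher in B (4.44%), and 36 of the 38 vehicle calls were among them. Scaling by library size alone gave 149 higher in A and 793 higher in B.

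Cholesterol synthesis genes were called in 1 direction over the 20 rats and in neither over the vehicle rats. In the vehicle rats the 24 genes of the list had a median log2 fold change of -0.61, beside 0.0016 over all genes, and 10 had an unadjusted p under 0.05, each higher in A, but none was called. In the 20 rats 9 of 24 were called, all higher in A, among them Sqle, Msmo1, Idi1, Hmgcs1, Fdps, Mvd, Cyp51 and Pmvk. Sqle, the squalene epoxidase step, was at 111, 51.8, 94.1, 50.2 and 25.5 CPM in A vehicle rats and 22.8, 13.9, 48.2, 24.9 and 18.5 CPM in B vehicle rats, which overlapped (log2 fold change over 20 rats of -1.28, SE 0.27, adjusted p = 0.003479). Msmo1, a sterol demethylating oxidase, was at 33.7 to 237 and 31.3 to 78.0 CPM (-1.16, SE 0.29, adjusted p = 0.009112). Idi1, which isomerises the isoprenoid building block, was at 30.1 to 84.0 and 11.4 to 54.3 CPM (-1.16, SE 0.29, adjusted p = 0.01062). The count stayed at 9 to 12 when each of the 20 rats was left out in turn. In the opposite direction, Abcg5 and Abcg8, the paired transporters that export sterols into bile, were higher in B over the 20 rats by 1.02 (SE 0.27, adjusted p = 0.01345) and 1.25 (SE 0.34, adjusted p = 0.0171) on the log2 scale. Abcg5 was at 37.8, 43.3, 32.9, 8.61 and 14.4 CPM in A vehicle rats and 25.7, 33.9, 56.9, 81.6 and 76.0 CPM in B vehicle rats, with overlap.

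Among 43 tested P450 genes of families 1 to 4, Cyp2u1 alone was called in the vehicle rats, and 5 were called higher in A and 2 higher in B over the 20 rats. Cyp1a1, a P450 induced through the aryl hydrocarbon receptor, was at 1.29, 1.21, 10.4, 9.29 and 4.34 CPM in A vehicle rats and 0.955, 0.830, 0.295, 0.277 and 0.0414 CPM in B vehicle rats, without overlap (adjusted p = 0.07431 in vehicle rats). Over the 20 rats its log2 fold change was -3.24 (SE 0.57, adjusted p = 0.0009554). Cyp1a2, induced by the same receptor and far more abundant, was at 640 to 1810 and 181 to 597 CPM without overlap (-1.18 over 20 rats, SE 0.23, adjusted p = 0.002012). At 300 mkd the groups overlapped for both Cyp1a1 and Cyp1a2. Day 29 vehicle males were at 0.0337 to 0.514 CPM of Cyp1a1 and 208 to 862 CPM of Cyp1a2. Cyp3a9 was at 43.1 to 125 and 13.0 to 69.1 CPM (-1.32 over 20 rats, SE 0.40, adjusted p = 0.026). The 3 most abundant P450 genes that were not called in vehicle rats had small values that turned positive with library size alone: Cyp2c13 had a log2 fold change of -0.02 (SE 0.21), Cyp2e1 of -0.11 (SE 0.23) and Cyp2c7 of -0.08 (SE 0.31).

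The glutathione transferase and NRF2 list had a median of -0.20 in the vehicle rats, with Gstk1 and Gsta4 called and 11 of 35 genes at an unadjusted p under 0.05, each higher in A. Over the 20 rats 6 of 37 were called, all higher in A. Nqo1, a quinone reductase, was at 6.01, 25.3, 8.26, 25.0 and 4.24 CPM in A vehicle rats and 16.2, 3.71, 3.15, 3.97 and 4.14 CPM in B vehicle rats (-1.73 over 20 rats, SE 0.46, adjusted p = 0.0141). Gsta3 ranged from 0.557 to 69.9 CPM within A alone and from 3.18 to 6.34 CPM in B (-1.95 over 20 rats, SE 0.63, adjusted p = 0.03764). The count of 6 fell to 2 without vehicle B rat 4 and to 3 with library size alone or with a trend on gene span, described later, removed.

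Genes that differ between the sexes were called in both directions. The female-predominant list had a median of -0.11 in vehicle rats, with 6 genes positive and 7 negative, and of 0.88 at 300 mkd. Of 13 tested genes on this list, Sult2a2 was called higher in A and Hao2 higher in B in the vehicle rats, and over the 20 rats 2 were called higher in A and 3 higher in B. These counts include Hao2 and Abcb1b, which were not higher in the females of experiment B than in its males, as given below. Cyp2c12, the P450 that marks the female pattern of growth hormone release in rat liver, was at 8.60, 17.6, 12.3, 50.2 and 44.2 CPM in A vehicle rats and 76.5, 158, 56.2, 66.8 and 250 CPM in B vehicle rats, with no overlap (log2 fold change over 20 rats 2.02, SE 0.37, adjusted p = 0.001317). At 300 mkd the groups overlapped for Cyp2c12, and the day 29 vehicle males of experiment B were at 15.5 to 68.1 CPM. The female vehicle rats of experiment B had 3150 to 6050 CPM, so every male was far below them. A1bg, another plasma protein of female rat liver, was at 0.0719 to 3.70 CPM in A males, 0.655 to 8.91 CPM in B males and 4450 to 15000 CPM in females (2.27 over 20 rats, SE 0.62, adjusted p = 0.01659). Socs2, which growth hormone induces as a brake on its own signal, was at 8.27, 3.23, 5.90, 21.2 and 7.50 CPM in A and 22.2, 19.0, 14.1, 37.4 and 54.3 CPM in B (1.29 over 20 rats, SE 0.34, adjusted p = 0.01301). It was the single call over the 20 rats among 15 tested growth hormone and IGF axis genes (6.67%, beside 4.44% of all genes higher in B). The median of that list was 0.04.

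Of 17 male-predominant genes, 2 were called higher in A over the 20 rats. Obp3, an odorant-binding protein that male liver secretes, was at 114, 168, 123, 166 and 48.3 CPM in A and 55.6, 53.2, 113, 34.9 and 57.3 CPM in B, beside at most 0.0836 CPM in females (-1.36 over 20 rats, SE 0.31, adjusted p = 0.005214). Cyp4a2 was at 78.3 to 192 and 23.9 to 94.1 CPM, beside at most 0.203 CPM in females (-1.13, SE 0.31, adjusted p = 0.01522). Cyp2c11, the main male P450, gave 0.26 over the 20 rats (SE 0.20, adjusted p = 0.3906), and the male-predominant list had a median of -0.02 in the vehicle rats and of -0.28 at 300 mkd, where 2 of its genes were called higher in A. Hao2 and Abcb1b, although listed as female-predominant, were not higher in the females of experiment B than in its vehicle males, with Hao2 at 18.1 to 101 against 458 to 925 CPM and Abcb1b at 1.53 to 5.01 against 1.47 to 8.39 CPM.

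Genes of the urea cycle and amino acid catabolism had a median log2 fold change of -0.43 over 35 genes in the vehicle rats, and 17 of them had an unadjusted p under 0.05, each higher in A. Hpd was the single call, and over the 20 rats Ass1, Oat, Prodh, Got1 and Hpd were called, all higher in A. Ass1, the argininosuccinate-forming step of the urea cycle, was at 1230, 1500, 1880, 1560 and 1310 CPM in A vehicle rats and 1040, 933, 887, 837 and 430 CPM in B vehicle rats, without overlap (-0.81 over 20 rats, SE 0.16, adjusted p = 0.001949). At 300 mkd the groups overlapped for Ass1, and day 29 vehicle males were at 740 to 1580 CPM. The pericentral list had 5 of 19 genes called over the 20 rats, all higher in A and among them Cyp1a2 and Rhbg, an ammonium transporter at 11.7 to 24.3 and 5.95 to 11.4 CPM in vehicle rats (-0.92, SE 0.19, adjusted p = 0.003295). Its periportal counterpart had 2 of 19, also higher in A. For Rhbg the groups overlapped at 300 mkd, and day 29 vehicle males were at 4.76 to 6.87 CPM. Apob, the structural protein of very low density lipoprotein, was at 5810 to 9650 CPM in A and 7210 to 13300 CPM in B vehicle rats, and was the one hepatocyte marker called over the 20 rats (0.79, SE 0.16, adjusted p = 0.002323). The hepatocyte list as a whole lay in the other direction, with 8 of 10 markers negative in vehicle rats, a median of -0.24 there and of -0.21 over the 20 rats.

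Ribosomal protein and respiratory chain genes were mostly higher in experiment A by small amounts. In vehicle rats 23 of 75 ribosomal protein genes had an unadjusted p under 0.05 and a higher level in A, against 3 in B, with a median of -0.20. For the nuclear-encoded respiratory chain 36 of 78 were higher in A at that level and 0 in B, with a median of -0.24, beside 906 and 1028 of all 10916 genes. Atp5i and Ndufb4 were called there, at 59.6 to 76.1 against 37.6 to 48.9 CPM and at 11.3 to 12.6 against 6.32 to 8.12 CPM.

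Differences also varied with the size of the gene. Gene span, from the first to the last base of the gene with introns, was known for 98.7% of the tested genes. With the genes ordered by span and cut into 5 equal bins, the median log2 fold change was -0.13 in the bin of shortest genes, up to 8147 bases, then -0.06, -0.02 and 0.07, and 0.18 in the bin of longest genes, from 66678 bases. The Spearman correlation across genes was 0.356 in vehicle rats and 0.377 at 300 mkd. It is given as a description, since genes of 1 library share its depth and composition. The trend was present rat by rat: the correlation of a gene's deviation from its mean with its span was negative in all 5 A vehicle rats (-0.314 to -0.0701) and positive in all 5 B vehicle rats (0.0671 to 0.298), with A rat 2 and B rat 4 at the ends. Ribosomal protein genes had a median span of 3114 bases and respiratory chain genes of 7834, while Sema6d and Akap6 spanned 592899 and 440318 bases. With the trend removed, a step added after the data were seen, 35 genes were called, 23 higher in A and 12 higher in B, and 28 of the 38 were among them. Hpd, Gstk1, Apoc1, Ndufb4, Rps10, Atp5i, Gsta4, Dync1h1, Sema6d and Akap6 were then no longer called, although they kept their direction, with log2 fold changes from -0.77 for Hpd to -0.45 for Atp5i and from 0.76 for Sema6d to 0.82 for Akap6. Gsta4 and Ndufb4 lost the call through the fold change alone. The median of the cholesterol list was then -0.57 and that of the ribosomal list -0.06. B rat 4 had the fewest gene counts of the 10 rats (20196236). It also had the largest share of reads that named no gene among the B vehicle rats (56.7%), a value not available for experiment A. RNA quality values of the rats were not used here. The part of depth, of that share and of RNA quality in the trend was not tested.

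**Figure D4:**
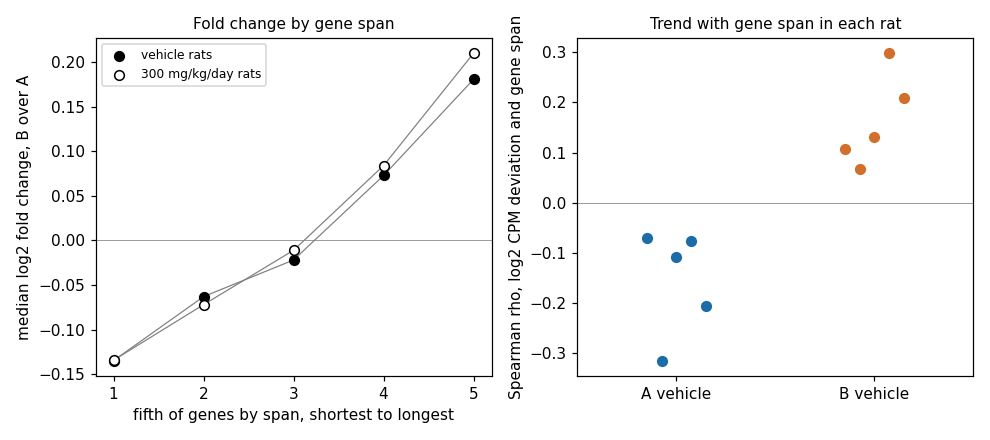
Left, median log2 fold change of experiment B over experiment A in 5 equal bins of genes ordered by span, for vehicle rats (filled) and 300 mkd rats (open). Right, the Spearman correlation between gene span and each gene's deviation from its 10-rat mean for every vehicle rat, which was below 0 in all A rats and above 0 in all B rats.

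Clock genes, whose levels follow the time of day, had no call among 17 in either fit. Dbp, a clock output gene that swings widely over the day, was at 252, 227, 161, 4.33 and 11.3 CPM in A and 166, 235, 2.69, 129 and 28.7 CPM in B. High and low rats were thus found within both experiments (log2 fold change -0.23, SE 1.08). Antigen presentation genes had a median of 0.34 over 39 genes in vehicle rats and -0.13 at 300 mkd, with 0 called in either and 11 at an unadjusted p under 0.05 in vehicle rats. Its members ran from -2.90 to 2.52, and the 3 most abundant were near 0: B2m had a log2 fold change of 0.03 (SE 0.17), RT1-A2 of 0.11 (SE 0.33) and RT1-S3 of 0.13 (SE 0.28). Interferon response genes had medians of 0.21 and -0.11 in the 2 comparisons, without a call in either. Over the 20 rats 3 genes of each of these 2 lists were called higher in B, counts that ranged from 0 to 10 and from 0 to 9 when single rats were left out. Lists of fatty acid synthesis, Slc22 and Slco transporters, p53 targets, heat shock and ATF4 targets had no call in vehicle rats or over the 20 rats.

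**Figure D5:**
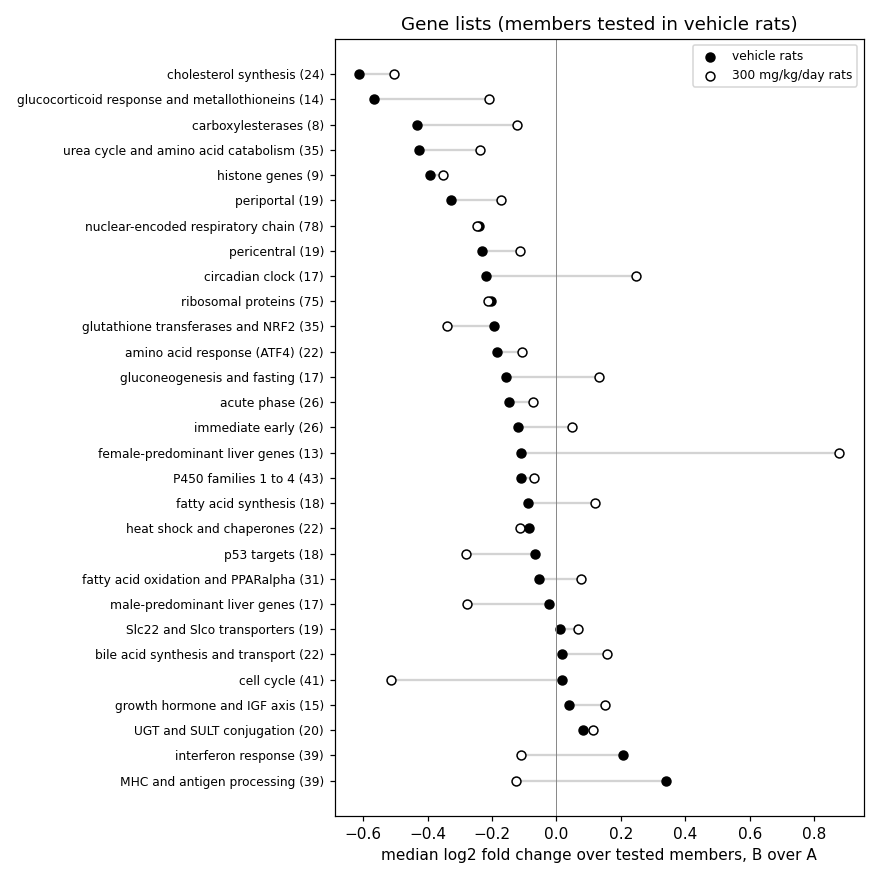
Median log2 fold change of experiment B over experiment A across the tested members of 29 gene lists, in vehicle rats (filled) and in 300 mkd rats (open), with the number of members tested in vehicle rats in brackets. Cholesterol synthesis lies well below 0 in both comparisons (-0.61 and -0.51), while several lists lie on opposite sides of 0 in the 2 comparisons, most widely the female-predominant genes (-0.11 and 0.88).

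The erythroid gene Hbb overlapped between experiments at 300 mkd. It averaged 210.4 ± 33.0 CPM in A and 67.6 ± 38.1 CPM in B vehicle rats (SD, n = 5), and 122.3 ± 37.4 and 96.4 ± 29.6 CPM at 300 mkd (n = 5). Its log2 fold change was -0.34 there, in the same direction as in vehicle rats. The part of blood in the other differences was not tested.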

How the data were processed

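Left liver lobe RNA was sequenced from stranded, poly(A)-selected single-end libraries. The authors trimmed reads with Trimmomatic, aligned them to the UCSC Rn6 build with Bowtie2 and counted them per gene model with HTSeq; versions and the strand setting are not given in the sources used here. The deposited values used are whole-number counts per gene symbol and rat, not normalized. The 4 tables used were joined by symbol (17337 genes). Lines that name no gene, present for experiment B (41.4 to 56.7% of reads in its vehicle rats), were left out. Depth sets the counting error and the spread between 5 rats sets the precision.

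Counts were tested with edgeR 4.0.16 in R 4.3.3 (TMM scaling, filterByExpr, quasi-likelihood F-test, Benjamini-Hochberg adjustment). The study's criteria for calls were used: a fold change of at least 1.5 and an adjusted p of at most 0.05. Printed CPM share 1 TMM scale over 65 rats. Fold changes are experiment B over experiment A. Unadjusted p-values are stated as such. Replicates are separate rats, as the design states. The script was tested on simulated data.

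Members and lists were chosen with earlier results of these data known. Named genes were, among calls whose groups do not overlap and that reach 1 CPM, the 8 largest and the 4 most abundant per direction, up to 3 called members of each list per direction, on/off genes, and the 3 most abundant uncalled clock, antigen presentation and P450 genes. Other calls named (Spaca1, Oplah, Jam3, Sema6d, LOC500035, Sh3yl1, LOC691083) were chosen after their values were seen, as was the use of the list rule on the fit over 20 rats. Gene span and gene order came from RefSeq (GRCr8), matched by symbol or synonym, with no coordinates carried over to Rn6; 10772 of 10916 tested genes matched. Alternatives were DESeq2 1.42.0, other scaling, other filters, more groups in the fit, the replicate number as a block, leaving out each rat, and removal of a per-rat lowess trend on span. Some called genes are not reported here by name.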

Additional observations from a re-analysis of the deposited data

Results flagged for a closer look

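In 4 of 120 sets of values from 5 rats examined, 1 rat stood apart from the other 4 by the gap test, where chance gives about 6. Each of the 4 flags is 1 gene in 1 vehicle group. Vehicle B rat 4 had 0.0922 CPM of Ly6al and 0.0461 CPM of Spaca1 while the other 4 B rats had 0. These are 2 reads and 1 read. With 4 values of 0, any read in the remaining rat meets the test, so the chance figure does not apply to these genes. Vehicle B rat 3 had 60.6 CPM of Nr1d2, a clock repressor, against 97.6 to 108 CPM in the other 4, and the same rat had the lowest Dbp of the 10. Vehicle A rat 1 had 1040 CPM of Cyp2c7 against 2330 to 2580 CPM in the other 4.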

How the results depend on the processing

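The vehicle count of 38 was 140 with library size only, 149 with all groups of both male day 8 tables in the fit, 339 by the DESeq2 Wald test, 730 with the 300 mkd rats added and dose as a term, and 8 at a fold change of 2 and an adjusted p of 0.01. Leaving out each rat gave 12 to 48 calls. The 102 calls at 300 mkd became 327 with all groups, 440 by DESeq2, 11 with the replicate block and 52 with the span trend removed, and 33 to 107 when each rat was left out. The 21 genes called in both became 48, 97 and 170 with library size only, all groups and DESeq2, 5 with the block and 8 to 21 without single rats. The 730 calls over 20 rats ranged from 637 to 773 without single rats and shared 454 genes with the 520 called once the span trend was removed. The share of vehicle calls with the same direction at 300 mkd was 100% without each rat, and 98.6%, 99.3%, 98.5% and 97% with library size only, all groups, DESeq2 and the span trend removed.

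Replicate numbers do not pair the rats: correlations of same-numbered rats were -0.107, 0.205, -0.0533, 0.134 and 0.364, and no source says that a number is shared. With the replicate block 28 genes were called in the vehicle rats, 20 of them among the 38. Among single genes, directions turned only for uncalled examples: Dbp to 0.1833 with the block, and Cyp2c13, Cyp2e1 and Cyp2c7 to 0.1309, 0.0426 and 0.0495 with library size only. Without single rats Dbp ranged from -0.7121 to 0.1508, B2m from -0.0661 to 0.1464, RT1-A2 from -0.1121 to 0.3365, RT1-S3 from -0.0318 to 0.367, Cyp2c13 from -0.0945 to 0.1565 and Cyp2c7 from -0.3647 to 0.0571. Except where stated, the cause was not tested. Differences below about 1.5-fold, or in genes near 1 CPM, are limited by the spread of 5 rats and by depth.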

Other observations

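The fit over 20 rats also separated other genes, taken by the same rule of size among genes not called in the vehicle rats, with all 10 rats apart and at least 1 CPM. Among its calls with a symbol that names a gene, all 10 rats of 1 experiment lay above all 10 of the other for 73. The share over all genes tested is not given here. Apof, an apolipoprotein that regulates cholesteryl ester transfer, was at 539 to 766 CPM in A and 116 to 400 CPM in B vehicle rats, and at 491 to 599 and 97.5 to 200 CPM at 300 mkd (log2 fold change -1.92, SE 0.21, adjusted p = 6.387e-06). Its vehicle value alone, -1.82, had an adjusted p of 0.05873 and so missed the threshold. Gchfr, the feedback regulator of the first enzyme of tetrahydrobiopterin synthesis, was at 71.8 to 109 CPM in A and 30.7 to 53.2 CPM in B vehicle rats (-0.79, SE 0.11, adjusted p = 0.0001438). Neto2, Lrfn3, Ttc21b, Rps26, Uqcc2 and Aamdc were also higher in A, by 0.68 to 1.70 on the log2 scale.

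By the same rule, which leaves out larger differences with overlap such as Lepr (2.34 on the log2 scale), the 8 genes in the other direction were Trps1, Ino80d, Fam129a, Tmem170b, Fyb, Atf7, Plekhh2 and Ubn2. Trps1, a GATA-type transcriptional repressor, was at 0.220 to 0.503 CPM in A and 0.590 to 1.45 CPM in B vehicle rats (1.48, SE 0.27, adjusted p = 0.001192). Fyb, an adaptor protein of blood cells, was at 2.19 to 4.26 and 4.48 to 9.63 CPM (0.95, SE 0.15, adjusted p = 0.0004271). The spans of these 8 genes ran from 38794 to 226489 bases, and each lay in 1 of the 2 bins of longest genes.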
